A study of Sus scrofa with 6 samples.

Results

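The apolipoprotein A1-C3-A4-A5 cluster is a group of 4 neighbouring genes, APOA1, APOC3, APOA4 and APOA5, whose products travel on lipoproteins. The genes were taken by name, through the Ensembl identifier of each in the table of gene names, and 3 of the 4 were found among the 1780 genes of the count table: APOA1 (ENSSSCG00000030921), APOC3 (ENSSSCG00000015069) and APOA4 (ENSSSCG00000040689). Each of the 3 had well over the required 10 reads and passed the filter on low counts. No identifier in the name table was matched to APOA5, so APOA5 is reported as not measured. RNA came from 6 pig embryos taken whole at embryonic day 21, all of the Landrace x Yorkshire x Duroc cross. The 3 control embryos were untreated, and the 3 parthenotes came from oocytes activated with electric pulses and no sperm, which were carried by surrogate gilts and had maternal chromosomes only. The control columns are headed AI-F, an abbreviation the labels do not explain, and the labels do not describe how the controls were conceived, whether embryos shared a dam, or whether the yolk sac was left on the embryo. The p-values therefore cover the spread among these 6 libraries, part of which may be technical.

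Apolipoproteins are secreted proteins that hold lipid particles together and steer them to enzymes and receptors. In mammalian embryos the endoderm of the yolk sac secretes them first and the liver afterwards, while the intestine becomes a source later in development. APOA1 is the main protein of high-density lipoprotein and activates LCAT, the enzyme that esterifies cholesterol in plasma. APOC3 slows the clearance of triglyceride-rich particles by inhibiting lipoprotein lipase, and APOA5 has the opposite effect. APOA4 is made mainly by enterocytes and is carried on chylomicrons.

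On the Sscrofa11.1 assembly, RefSeq places all 4 genes within 40.5 kb of chromosome 9, from 44177834 to 44218360. APOA5 lies at 44177834 to 44180880, APOA4 at 44201587 to 44204072, APOC3 at 44211171 to 44213538 and APOA1 at 44216481 to 44218360. The gaps are 20706 bp between APOA5 and APOA4, 7098 bp between APOA4 and APOC3, and 2942 bp between APOC3 and APOA1. The annotated span of the long non-coding RNA LOC106504887 covers all 2486 bp of APOA4, and that of ZPR1 covers 304 bp of APOA5. The library kit does not mark strand, so reads of APOA4 and of that non-coding RNA cannot be told apart where their exons overlap. APOA1 and APOC3 overlap no other annotated gene.

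The genes with a known position in the table used here were almost all from chromosome 9 (686 of 688 by first match of the symbol), and the counted reads per library ranged from 1193714 to 1484193. CPM therefore means counts per 1000000 of these reads, scaled with TMM, a method that sets libraries to a common level through their bulk of genes. The most abundant gene, which has no symbol here, took 8.29% to 20.8% of the reads in controls and 15.4% to 19.1% in parthenotes. PEG10, a paternally expressed gene, fell from between 32113 and 45134 reads per control to between 15 and 36 per parthenote, which checks the labels of all 6 libraries. Of 807 genes tested with edgeR's quasi-likelihood test and Benjamini-Hochberg adjustment, 5.20% were called at an adjusted p under 0.05, 1.61% higher and 3.59% lower in parthenotes.

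APOC3 rose in parthenotes and was the only called gene of the 3 measured. Controls 1, 2 and 3 stood at 2013, 1631 and 2107 CPM, and parthenotes 1, 2 and 3 at 5383, 3462 and 3332 CPM. Every parthenote stood above every control, and parthenote 1 was the highest of all; groups did not overlap in 28.0% of the tested genes. The mean was 1917 ± 252 CPM in controls and 4059 ± 1149 CPM in parthenotes (SD, n = 3 each), and the fitted fold was 2.12, with a 95% interval of 1.55 to 2.89. The log2 fold change was 1.08 ± 0.20 (SE), with an adjusted p of 0.0178 in edgeR's quasi-likelihood test over 807 genes. That call was lost when control 1, control 2 or control 3 was left out, at adjusted p-values of 0.0609, 0.0730 and 0.0567, with log2 fold changes of 1.12, 0.98 and 1.15. In whole embryos, a different number of cells that make APOC3 and a different amount of RNA per cell cannot be told apart.

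APOA1 was the third most abundant of the 807 tested genes by mean CPM, and its group means were close together. Controls 1, 2 and 3 stood at 31277, 27392 and 31691 CPM, and parthenotes 1, 2 and 3 at 45978, 28523 and 22793 CPM. Parthenote 1 was above and parthenote 3 below every control, so the groups overlapped. The mean was 30120 ± 2372 CPM in controls and 32431 ± 12077 CPM in parthenotes (SD, n = 3 each), and the coefficient of variation was 7.87% in controls and 37.2% in parthenotes. The log2 fold change of APOA1 was 0.11 ± 0.24 (SE), with a 95% interval of -0.43 to 0.65 and an adjusted p of 0.834 in edgeR's test. The sign depended on parthenote 1, since without it the value was -0.23 (adjusted p = 0.330, edgeR).

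APOA4 was scarce, and controls 1, 2 and 3 held 13, 21 and 14 reads of it. The parthenotes had 9, 59 and 5, so parthenote 2 was the highest and parthenote 3 the lowest of the 6 embryos. Counting error alone, as an exact 95% Poisson interval, reached from 44.9 to 76.1 reads for the 59 of parthenote 2 and from 13.0 to 32.1 for the 21 of control 2, which did not overlap. In CPM the means were 12.4 ± 3.51 in controls and 17.4 ± 21.3 in parthenotes (SD, n = 3 each). The log2 fold change was 0.48 ± 0.80 (SE), with a 95% interval of -1.36 to 2.32 and an adjusted p of 0.780 in edgeR's test. Without parthenote 2 it was -1.28 (adjusted p = 0.295), so 1 library set its direction. The interval leaves room for changes of several fold either way.

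**Figure D1:**
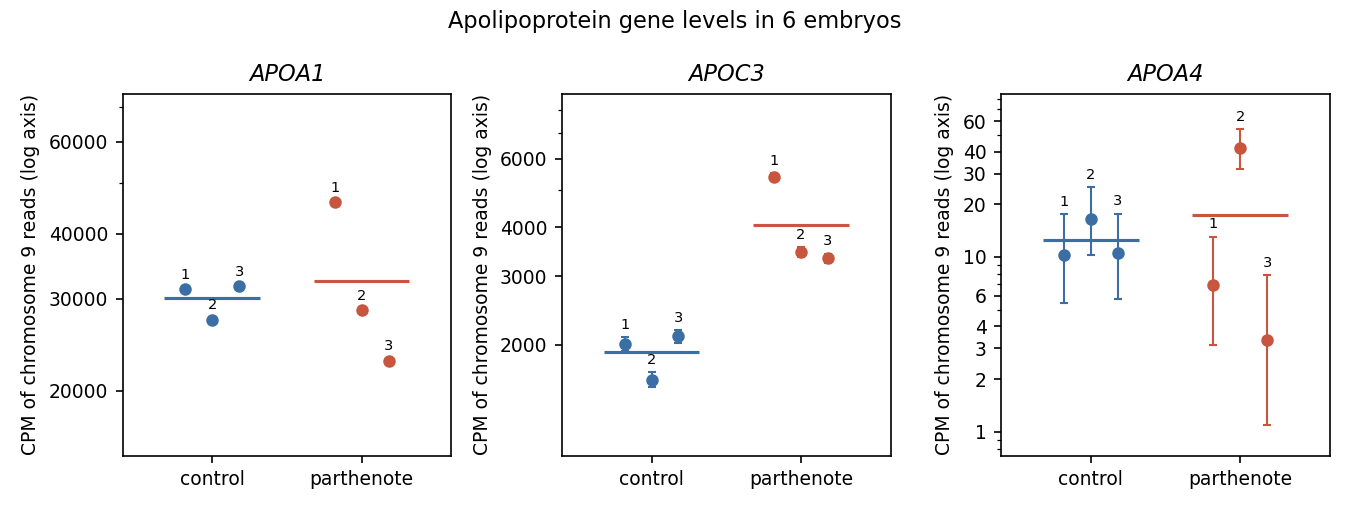
Level of each gene in every library, in CPM on a log axis; points are embryos with their replicate number, bars on points are exact 95% Poisson counting intervals, and horizontal lines are group means. APOC3 lies at 1631 to 2107 CPM in controls and 3332 to 5383 CPM in parthenotes, while the groups overlap for APOA1 and APOA4.

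The 3 genes differed in how much they varied between embryos of a group. The biological coefficient of variation, edgeR's estimate of the spread within groups beyond counting error, was 63.3% for APOA4, 25.1% for APOA1 and 19.6% for APOC3, against 17.0% for the tested genes in common. APOA4 ranked 6 of 807 from the highest, APOA1 93 and APOC3 184. Divided by the RefSeq span of each gene, introns included, the levels in controls were 16021 ± 1262 CPM per kb for APOA1, 809 ± 106 for APOC3 and 5.0 ± 1.41 for APOA4 (SD, n = 3 each). In parthenotes these were 17251 ± 6424, 1714 ± 485 and 6.98 ± 8.55 CPM per kb. The order APOA1, APOC3, APOA4 held in each of the 6 embryos, with no overlap between neighbours in that order. Transcript lengths were not used here, so the distances between the genes are approximate.

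A ratio of reads between 2 genes of a library needs no scaling, and the ratio of APOC3 to APOA1 separated the groups. Per 1000 APOA1 reads, controls 1, 2 and 3 held 64.3, 59.5 and 66.5 reads of APOC3, and parthenotes 1, 2 and 3 held 117, 121 and 146. The ratio was thus close to constant among controls and higher in every parthenote, also in parthenote 3, where APOA1 itself was lowest. The means were 63.4 ± 3.56 and 128 ± 15.7 reads per 1000 (SD, n = 3 each), a log2 difference of 1.01 or 2.01-fold. The two-sided exact permutation test over the 6 libraries gave p = 0.10, which is the smallest that 3 against 3 allows, and 0.30 after Benjamini-Hochberg adjustment over the 3 ratios. Leaving out each library in turn gave log2 differences from 0.91 to 1.07.

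Levels of APOC3 and APOA1 varied together within each group. The pooled within-group SD of the log2 ratio was 0.13, against a median of 0.42 for the ratios of 806 other genes to APOA1, and was the lowest but 1 of these. The ratio to APOA1 did not overlap between groups for 7.20% of these 806 genes, and for 1.36% it was higher in every parthenote, APOC3 among them. The difference for APOC3 ranked 9 of 806 from the highest. When each library was scaled to its APOA1 reads in edgeR, an alternative chosen after seeing the data, the log2 fold change of APOC3 was 1.01 ± 0.36 (SE), with a 95% interval of 0.32 to 1.71. The adjusted p of APOC3 was then 0.152 and 18 genes were called. That SE matched those of PCSK7 and SIDT2 in the same fit (0.36 each), although the APOC3 ratio spread far less than most. The p-value of that fit therefore does not measure the spread of APOC3 itself.

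The ratios that involve APOA4 followed the counts of APOA4. Per 1000 APOA1 reads there were 0.328, 0.602 and 0.334 APOA4 reads in the controls and 0.150, 1.47 and 0.148 in the parthenotes. Per 1000 APOC3 reads these were 5.09, 10.1 and 5.02 in the controls and 1.28, 12.1 and 1.01 in the parthenotes. Parthenote 1 and parthenote 3 lay below every control in both ratios, and parthenote 2 above every control. The exact permutation test gave p = 1.00 for APOA4 over APOA1, with a log2 difference of -0.34, and p = 0.40 for APOA4 over APOC3, with -1.35 (adjusted p = 1.00 and 0.60 over the 3 ratios).

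**Figure D2:**
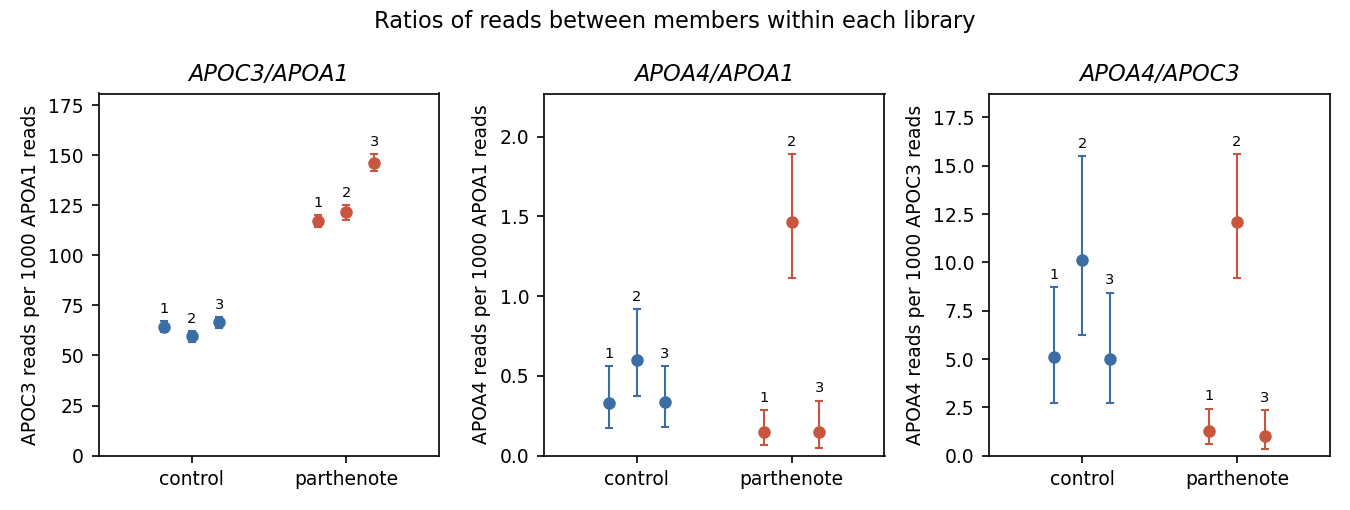
Reads of one gene per 1000 reads of another in each library, on linear axes from 0; points are embryos with their replicate number and bars are 95% intervals from exact binomial limits, which cover counting error only. APOC3 over APOA1 lies at 59.5 to 66.5 in controls and 117 to 146 in parthenotes, and parthenote 2 stands above the other embryos in both ratios of APOA4.

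The genes around the cluster showed no call. RefSeq lists 18 other genes whose span lies within 1 Mb of the cluster, of which 11 could be matched to a row and all 11 of these were tested. None of the 11 passed edgeR's test, where 5.20% of all tested genes did. With so few genes, 0 calls is near that share and no result about the neighbours. An unadjusted p under 0.05 was found for 1, BUD13, as it was for 21.7% of all tested genes. The 16 alternative settings also gave 0 calls among the 11. Of the 11, 7 had a log2 fold change above 0 and 4 below, with a median of 0.09, against a median of 0.02 over all tested genes.

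ZPR1, a zinc finger protein gene whose span overlaps that of APOA5, averaged 1290 ± 150 CPM in controls against 1435 ± 57.4 CPM in parthenotes (SD, n = 3 each). SIK3, a kinase gene that begins 4.87 kb past the far end of APOA1, had 1103 ± 139 and 1266 ± 105 CPM. Their log2 fold changes were 0.15 ± 0.10 and 0.20 ± 0.11 (SE), with upper 95% limits of 0.38 and 0.45. Both upper limits lay below the lower limit of APOC3, 0.63. BUD13, a splicing factor gene, had the highest value of the window at 0.22 ± 0.08 (adjusted p = 0.146 in edgeR's test). PCSK7, a proprotein convertase gene, had the lowest at -0.11 ± 0.11 (adjusted p = 0.603). No test of the difference between APOC3 and these neighbours was made.

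**Figure D3:**
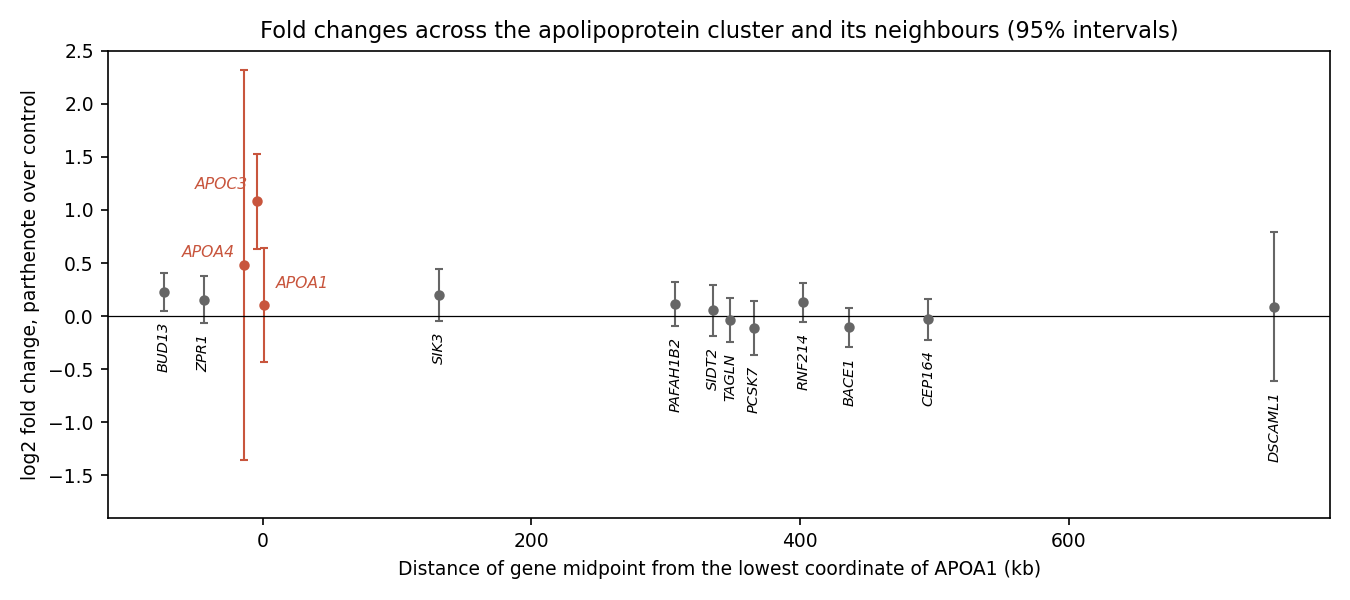
Log2 fold change of parthenotes over controls with 95% intervals, by distance of each gene's midpoint from the lowest coordinate of APOA1 in kb; red points are the 3 measured genes of the cluster and grey points the 11 tested neighbours. APOC3 at 1.08 has an interval above 0, and the neighbours lie between -0.11 and 0.22.

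The other tested genes of liver and yolk sac held 1 call, a fall. Of 38 genes in a list of such markers, cluster members left out, 5 were in the table and tested: 0 rose, 1 fell, and the median log2 fold change was -0.31, against 0.02 over all tested genes. With 1.61% of all tested genes called higher and 3.59% lower, counts this small are no result about the list. The one that fell was SLC37A4, the glucose-6-phosphate transporter of the endoplasmic reticulum, from 2523 ± 251 to 1628 ± 312 CPM (SD, n = 3 each). On the log2 scale SLC37A4 fell by 0.63 ± 0.14 (SE, edgeR adjusted p = 0.0321), a call lost without control 1, 2 or 3 or parthenote 2 or 3, at adjusted p-values of 0.0724 to 0.147. SERPINC1, which encodes antithrombin, had 4592 ± 769 and 3249 ± 1554 CPM, with a log2 fold change of -0.50 ± 0.29 (adjusted p = 0.382). Without parthenote 1 the value was -0.96 (adjusted p = 0.00976).

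HPX, which encodes the plasma heme carrier hemopexin, averaged 2817 ± 143 CPM in controls against 2912 ± 1655 CPM in parthenotes (SD, n = 3 each). C4BPA and C4BPB, the chains of the complement inhibitor C4b-binding protein, had log2 fold changes of -0.31 ± 0.43 and -0.01 ± 0.46 (SE), on 16 to 144 reads per library. Their adjusted p-values in edgeR's test were 0.722 and 0.990, and that of HPX was 0.966. The summed level of the 5 genes ran from 8802 to 11052 CPM in controls and from 5433 to 11951 CPM in parthenotes. None of the 5 was at 0 in any library, and the other 33 were not analysed here.

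Ratios to these genes, computed after seeing the data, compare the cluster with other hepatic transcripts inside each library. For each SERPINC1 read, APOC3 had 0.391, 0.439 and 0.429 reads in the controls, and 1.07, 1.46 and 1.43 in the parthenotes. Per HPX read it had 0.682, 0.612 and 0.743 in the controls and 1.13, 1.46 and 2.09 in the parthenotes. All 5 such ratios of APOC3 were higher in every parthenote, with log2 differences from 1.16 to 1.70. APOC3 gave ratios that were higher in every parthenote against 83.0% of the 806 other tested genes, so this was so for most genes and is no result about liver genes.

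APOA1 had 10.6, 10.3 and 11.2 reads per HPX read in the controls, and 9.64, 12.0 and 14.3 in the parthenotes, so the groups overlapped. Its ratios to SERPINC1 and SLC37A4 were higher in every parthenote, with log2 differences of 0.63 and 0.69, and its ratios to C4BPA and C4BPB overlapped. Over all 806 other genes, the ratio of APOA1 did not overlap between groups for 7.20%. The exact permutation test gave p = 0.10 for each of the 7 ratios that did not overlap, and 0.143 after adjustment over 10 ratios.

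Among genes of lipoprotein metabolism and lipid handling, the table held 13 of 85 listed, of which 12 were tested. Of these, 0 rose and 1 fell, where 1.61% and 3.59% of all tested genes did, and the median log2 fold change was -0.14, so the count is near the share over all genes. DGAT2, which makes triglyceride from diacylglycerol, fell from 687 ± 53.8 to 422 ± 73.0 CPM (SD, n = 3 each). On the log2 scale DGAT2 fell by 0.70 ± 0.14 (SE, edgeR adjusted p = 0.0242), a call lost without control 1, 2 or 3 or parthenote 3, at adjusted p-values of 0.0566 to 0.0822. ACAT1, the mitochondrial acetyl-CoA acetyltransferase of ketone metabolism, had 2253 ± 239 and 1597 ± 267 CPM and a log2 fold change of -0.50 ± 0.13 (adjusted p = 0.0652). With the replicate number as a block ACAT1 passed (adjusted p = 0.010, log2 fold change -0.50), and the count of calls in the list was then 2. It also passed in DESeq2 (0.0140), with library totals (0.0400), with no filter (0.0206) and without parthenote 1 (0.0176, log2 fold change -0.64).

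The other tested genes of that list had adjusted p-values of 0.196 or more in edgeR's test. CROT, a peroxisomal carnitine acyltransferase, had a log2 fold change of -0.34 ± 0.14 (SE), and passed without parthenote 1 at -0.51 (adjusted p = 0.0292). SOAT1, which esterifies cholesterol in cells, was at -0.24 ± 0.12 and SC5D of cholesterol synthesis at -0.17 ± 0.14. CYP51A1, also of cholesterol synthesis, lay at 0.21 ± 0.15. The lipid transfer protein STARD10 was at -0.16 ± 0.18. The sorting receptor SORL1, the lysosomal protein SIDT2 and the convertase PCSK7 were at 0.09 ± 0.14, 0.05 ± 0.11 and -0.11 ± 0.11. PON1 and PON2, paraoxonases of which PON1 is carried on the same high-density particles as APOA1, were at 0.07 ± 0.26 and -0.09 ± 0.16. PON3, with 1 read in all, was too low to test. The partners of the cluster on other chromosomes were not analysed here.

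**Figure D4:**
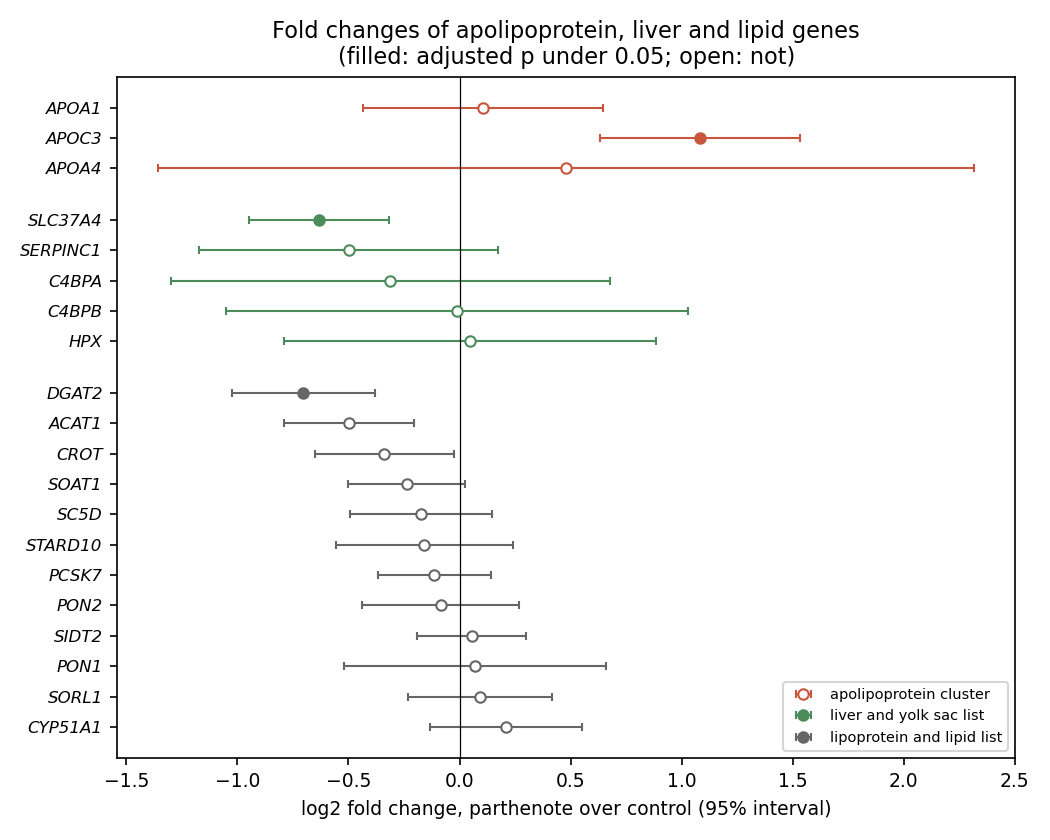
Log2 fold change with 95% interval for the 3 measured apolipoprotein genes, 5 liver and yolk sac genes and 12 lipoprotein and lipid handling genes; filled points passed an adjusted p of 0.05 in edgeR's test. APOC3 is the only filled point above 0, and SLC37A4 at -0.63 and DGAT2 at -0.70 are the filled points below 0.

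To find genes that resembled each apolipoprotein gene over the 6 libraries, log2 CPM profiles were centred on their means, and the root-mean-square difference was taken to 654 tested genes with a symbol. A library's scaling cancels in this measure, apart from the small pseudocount. The values are descriptions, and say nothing of shared control. For APOA1 the nearest was SLCO2B1, an uptake transporter of organic anions, at 0.13 log2 units, against a median of 0.36 over all genes compared. PDIA4, a disulfide isomerase of the endoplasmic reticulum, and SRPRA, a subunit of the receptor that docks ribosomes to that membrane, followed at 0.17 and 0.18. TECTA, a matrix protein gene of the inner ear, and HPX were also at 0.18. In these 5 genes, as in APOA1, parthenote 1 was the highest library. HPX lay 0.81 above its mean in parthenote 1 and 0.77 below it in parthenote 3 on the log2 scale, where APOA1 lay 0.59 above and 0.42 below.

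For APOC3 the nearest was ASNS, which encodes asparagine synthetase, at 0.24 log2 units, against a median of 0.60. ASNS lay below its mean in the 3 controls, by 0.56 to 0.70 on the log2 scale, and above it in the 3 parthenotes, by 0.46 to 0.73, and rose by 1.23 ± 0.10 (SE, adjusted p = 4.90e-05 in edgeR's test). C11orf71, LHFPL3, RIC3, a chaperone gene of acetylcholine receptors, and MAP6, a microtubule protein gene, followed at 0.35 to 0.36. For APOA4 no gene was as near. ATF3, a stress-induced transcription factor, was at 0.64 log2 units and KCNE3, a potassium channel subunit, at 0.77, with parthenote 2 highest in both. MR1, SPMIP7 and STK33 followed at 0.79 to 0.83. APOC3 itself ranked 663 of 806 genes by nearness to APOA1, at 0.52 log2 units, since the measure includes the difference between the groups.

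**Figure D5:**
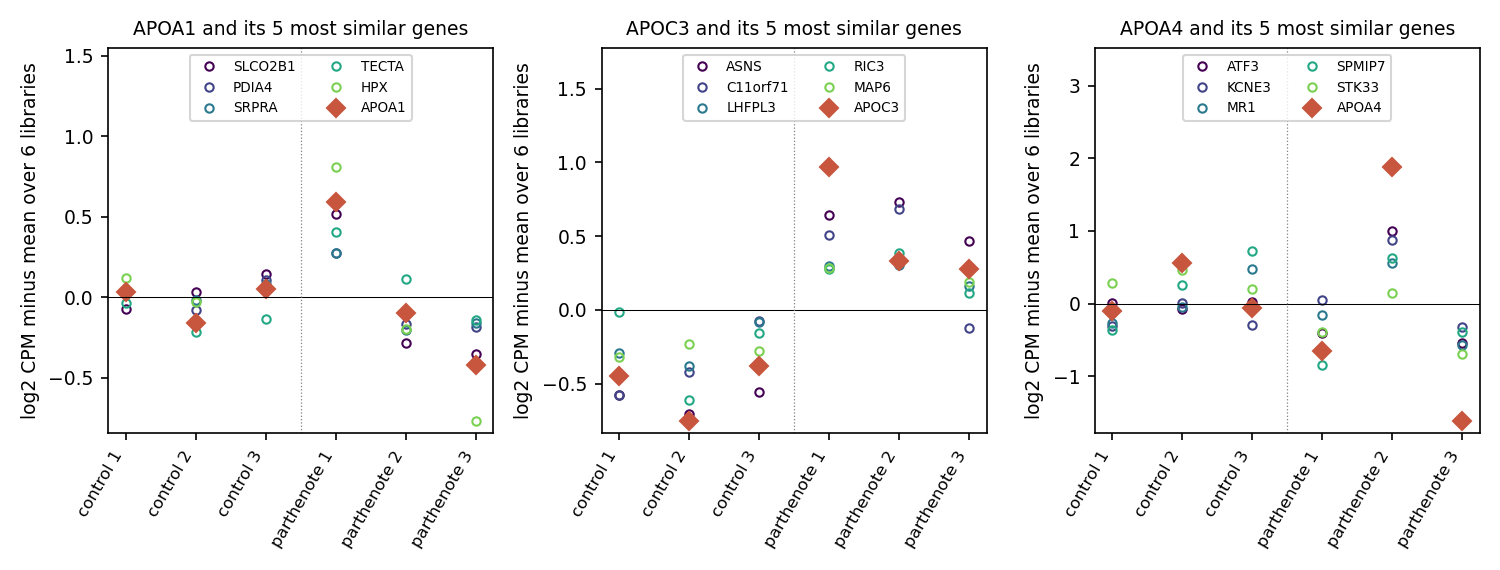
Log2 CPM minus its mean over the 6 libraries, for each measured apolipoprotein gene (red diamonds) and its 5 most similar genes (open circles); the dotted line parts controls from parthenotes. Parthenote 1 is the highest library for APOA1 and APOC3, and parthenote 2 for APOA4.

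Some markers of other tissues also differed between the groups. Over all tested genes, 5.20% were called in edgeR's test and 21.7% had an unadjusted p under 0.05. The groups did not overlap in CPM for 28.0%, so counts this small are no result about a tissue. HBB, the only red cell marker of 11 in the table, ranged over 873 to 2065 CPM among controls and 102 to 575 CPM among parthenotes, with a log2 fold change of -2.30 ± 0.78 (SE, adjusted p = 0.189 in edgeR's test). It passed in DESeq2 (adjusted p = 0.0426), in limma-voom (0.0293) and without parthenote 2 (0.00550, log2 fold change -3.37). Scaled to APOA1 reads in edgeR, HBB had an adjusted p of 8.83e-05 with an SE of 0.43. That p-value does not measure the spread of HBB between embryos. Parthenote 2, the embryo with the most APOA4 reads, had 811 HBB reads against 219 and 151 in the other parthenotes. The controls did not follow this, with 1108, 1562 and 2735 HBB reads beside 13, 21 and 14 APOA4 reads. Of 2 neural markers NRCAM rose, and the sum with NCAM1 was 5313 to 6637 and 7141 to 8732 CPM. The sum of the mesenchyme marker COL1A2 overlapped, at 43436 to 46591 and 40685 to 47881 CPM. The 3 endothelial markers summed to 2769 to 2890 and 2913 to 2977 CPM, with 0 called in edgeR's test and 1 at an unadjusted p under 0.05. That 1 was ESAM, which went against the sum at -0.42 ± 0.11 (SE, edgeR adjusted p = 0.0677). JAM3 and ROBO4 were at 0.12 ± 0.08 and 0.14 ± 0.12. Of the 4 trophoblast markers, PLET1 and the paternally expressed PEG10 fell. PLET1 rests on few reads, with 12, 20 and 18 in the controls and 2, 5 and 1 in the parthenotes. TFPI2 and PTGS2, at -0.44 ± 0.15 and 1.52 ± 0.50 (SE) on the log2 scale, did not pass (edgeR adjusted p = 0.136 and 0.144). The 4 summed to 25681 to 34393 CPM in controls, nearly all of it PEG10, and to 297 to 709 CPM in parthenotes. No enterocyte marker of 11 was in the table. The part of these differences in the values of APOC3, APOA1 and APOA4 was not tested.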

How the data were processed

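RNA of 3 control and 3 parthenogenetic embryos was made into TruSeq RNA v2 libraries, per the labels' protocols. The submitters' processing notes name HISAT2 2.1.0, SAMtools 1.9 and the build Sscrofa11.1. The tool that counted the reads and its annotation were not given in the sources used here. A table deposited by the authors holds raw counts for 1780 genes, 779 of them with a symbol. The deposited files per sample hold normalized signal, which is whole reads times a factor of 0.916 to 1.05, where some genes' reads differ a little from those of the table, and served only as an alternative for the ratios.

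The counts went into edgeR 4.0.16 under R 4.3.3 (TMM, filterByExpr with a minimum count of 10 and total of 15, robust quasi-likelihood, Benjamini-Hochberg adjustment over 807 genes). Log2 ratios of counts were compared by two-sided exact permutation. Positions and names came from RefSeq and a table of Ensembl names. The members and lists were chosen with earlier results of these data known. Named were all members, the nearest, called and extreme neighbours within 1 Mb, tested members of the lipid and liver lists, and the 5 genes nearest in profile to each member; marker genes were added beside them. One marker list is not reported here. Alternatives were other scalings and filters, DESeq2 1.42.0, limma-voom (limma 3.58.1), the replicate number as a block, and leaving out the most abundant gene or each library. Tested on simulated data for this comparison (795 genes), edgeR called 75 of 88 genes given a log2 change of 1 in size, 108 of 109 given 2, and 8 of 598 given none. The share of changed genes there was chosen, and a smaller share in the data would make calls harder.

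Deviations from group means correlated at 0.325, 0.261 and 0.142 between a control and a parthenote of the same number 1, 2 and 3. For different numbers the values ran from -0.260 to 0.104, so number 3 stood little apart. Deviations within a group depend on each other, so these values do not decide whether the numbers are pairs. The block treats the numbers as pairs as an alternative only, and the labels do not tie a number to a shared dam, batch or day. No pair of libraries of the same group agreed within sampling noise, with a chi-square of 6.98 or more per degree of freedom. Controls 2 and 3 had the 6.98, control 1 stood at 141 and 143 from them, and parthenote pairs ran from 21.1 to 61.0. Pairs across the groups were not compared. Intervals on reads are exact limits within a library and cover counting error only. PCR copies could not be recognised without molecular identifiers, so these intervals may be too narrow.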

Additional observations from a re-analysis of the deposited data

How the results depend on the processing

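APOC3 kept its direction under all 16 alternatives, with log2 fold changes from 0.83 to 1.19, and its call under 12; with the replicate number as a block its adjusted p was 0.00691 in edgeR's test. It lost the call without a control (values from 0.83 to 1.19 when each library was left out) and when scaled to APOA1 reads (1.01). The count of called members was 1 under the same settings and 0 when scaled to APOA1 reads, and 0 to 1 when a library was left out. With APOA1 scaling 18 genes were called in all, 0 of the lipid list and 0 of the liver list. Within groups, the log2 ratio to APOA1 had a median SD of 0.42 over genes and 0.13 for APOC3. That fit gave APOC3 an SE of 0.36, as it gave PCSK7 and SIDT2, so its p-values do not measure each gene's own spread. DESeq2 called 68 genes in all, against 42, and leaving out a library 17 to 55. The lipid list had 2 calls with library totals, with no filter, in DESeq2 and with the replicate block, and 0 to 3 when a library was left out; the liver list had 0 to 2. The cause was not tested, and fewer samples are part of it where a library was left out.

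When a library was left out, log2 fold changes ran from -0.23 to 0.29 for APOA1 and from -1.28 to 0.96 for APOA4, and the log2 difference of APOA4 over APOA1 from -1.44 to 0.22. APOA4 was at -0.27 in limma-voom, and DESeq2 gave it no adjusted p. HPX was at -0.10 in limma-voom, -0.10 with the replicate block and -0.13 when scaled to APOA1 reads, and at -0.51 to 0.33 when a library was left out. The signs of other values near 0 also turned when a library was left out: PON1 (-0.15 to 0.34), PON2 (-0.24 to 0.039), SIDT2 (-0.033 to 0.13), SORL1 (-0.041 to 0.21), DSCAML1 (-0.19 to 0.27), C4BPA (-0.89 to 0.039) and C4BPB (-0.54 to 0.32). Of the genes refitted with the replicate block (the members, neighbours, lipid and liver lists, HBB, ASNS and PEG10), only ACAT1 changed its call, and 55 genes were called in all. The ratio of APOC3 to APOA1 had a log2 difference of 0.91 to 1.07 when a library was left out, and 0.92 with group medians. The other alternatives could hardly move it: adding 0.5 to each count, the deposited normalized values, whose factor cancels, and the replicate block, which keeps the difference of means. Paired by replicate number its exact p was 0.25, the smallest 3 pairs allow. APOA4 rests on 5 to 59 reads per library, and its spread beyond counting error was 63.3%.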
